A study of Mus musculus with 12 samples.

Results

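Matrix glycoproteins, laminins and proteoglycans form the non-collagenous part of the extracellular matrix. This group of 49 genes was listed by name and function, with earlier results of these data known, and 47 of the 49 could be measured in brown fat, out of 18193 genes tested. Fbn1 and Efemp2 had no probe set assigned to a single gene and were not analysed here. The genes were placed in 6 groups by role: 13 of elastic fibres and microfibrils, 10 of the basement membrane, 7 proteoglycans, 5 thrombospondins, 12 adhesive and matricellular proteins, and 2 proteins that help collagen mature.

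The tissue was brown adipose, the heat-producing fat, from male mice homozygous for the ob mutation (ob/ob), which lack working leptin and are obese. Both groups were 3 months old, ate normal chow and were sampled 4 days after an injection. The anti-FGFR1 group of 6 mice received 1 mg/kg of an agonistic antibody into the peritoneal cavity, and the control IgG group of 6 mice was pair-fed. All mice lacked leptin, so no lean or untreated animals enter the comparison, and an injected antibody is not limited to 1 tissue. Each mouse gave 1 array, so the spread between arrays includes the spread between animals. In RNA of whole tissue, fewer cells of a type and less RNA per cell cannot be told apart.

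Adipocytes are each wrapped in a basement membrane, a thin sheet in which laminin trimers of an alpha, a beta and a gamma chain are tied to type IV collagen by nidogens and to heparan sulfate proteoglycans such as perlecan and agrin. Blood vessels and septa of fat carry elastic fibres, in which elastin is laid down on microfibrils of fibrillin and associated glycoproteins. Small leucine-rich proteoglycans bind collagen fibrils, and matricellular proteins such as thrombospondins, periostin and the CCN proteins act on cells and growth factors more than as scaffold. Most of these proteins are made by fibroblasts, adipocyte progenitors and vascular wall cells as well as by adipocytes.

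The values are log2 expression per probe set, as deposited, and differences are anti-FGFR1 minus control IgG on that scale. Array medians lay between 7.19 and 7.23, and each array correlated with the others of its group at a mean of 0.992 to 0.996 across genes. Ucp1, the defining gene of brown adipocytes, was at 14.52 ± 0.039 on control arrays and at 14.55 ± 0.048 on treated ones (SD, 6 arrays each). Skeletal muscle markers varied widely, and their mean over 15 genes was lowest on control IgG replicate 6 (9.61) and on anti-FGFR1 replicate 5 (6.83), against 10.46 to 11.85 on the other 10 arrays. RNA quality was read from control probe sets at the 3' and 5' ends of the Actb and Gapdh transcripts. Their log2 difference averaged 0.161 ± 0.031 on control arrays against 0.203 ± 0.027 on treated ones (SD, 6 arrays each, two-sided exact permutation p = 0.0368). The difference was 0.0692 for Actb (exact permutation p = 0.0433) and 0.0142 for Gapdh (exact permutation p = 0.506), and that of the average passed 0.05 without control IgG replicate 1 or anti-FGFR1 replicate 4 or 6 but not without any 1 of the other 9 arrays.

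The comparison asks what an agonist of FGFR1 does to transcripts of brown fat. Of the 47 measured matrix genes, 7 rose and 9 fell (limma, adjusted p under 0.05 over all genes), and 31 did not pass. Cilp fell the most, by 0.93 on the log2 scale, and Bgn rose the most, by 0.55. The 16 called genes are 34% of the group, beside 8.03% of all genes tested, of which 2.94% were called higher and 5.09% lower. Lower genes made up 63.4% of all calls as deposited and 50.9% after a second quantile normalization. When the fit included the 3' to 5' ratio, 6 of the 16 calls remained, 3 in each direction. Leaving out 1 array gave 9 to 15 called matrix genes, and the count of higher ones was 4 without control IgG replicate 5 or anti-FGFR1 replicate 5 and 3 without anti-FGFR1 replicate 2 or 3. Brighter genes were called more often, with 12.7% called among genes at or above the median level. Of the matrix genes 33 lay in that upper range, with 12 called, and 14 lay below it, with 4 called. The share called among all genes below the median level was not computed. The median difference of the group was -0.014, beside 0.0091 over all genes, while the median absolute difference was 0.209 against 0.0735. Matrix genes also varied more between mice, with a median SD in controls of 0.171 against 0.117 over all genes. Among the 16 called genes the 6 anti-FGFR1 arrays lay clear of the 6 controls for 7, which is 14.9% of the group beside 5.12% of all genes. They lay above in Lama2 and Spon1, beside 1.57% of all genes, and below in Lamb2, Cilp, Eln, Mfap4 and Agrn, beside 3.55%.

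**Figure D1:**
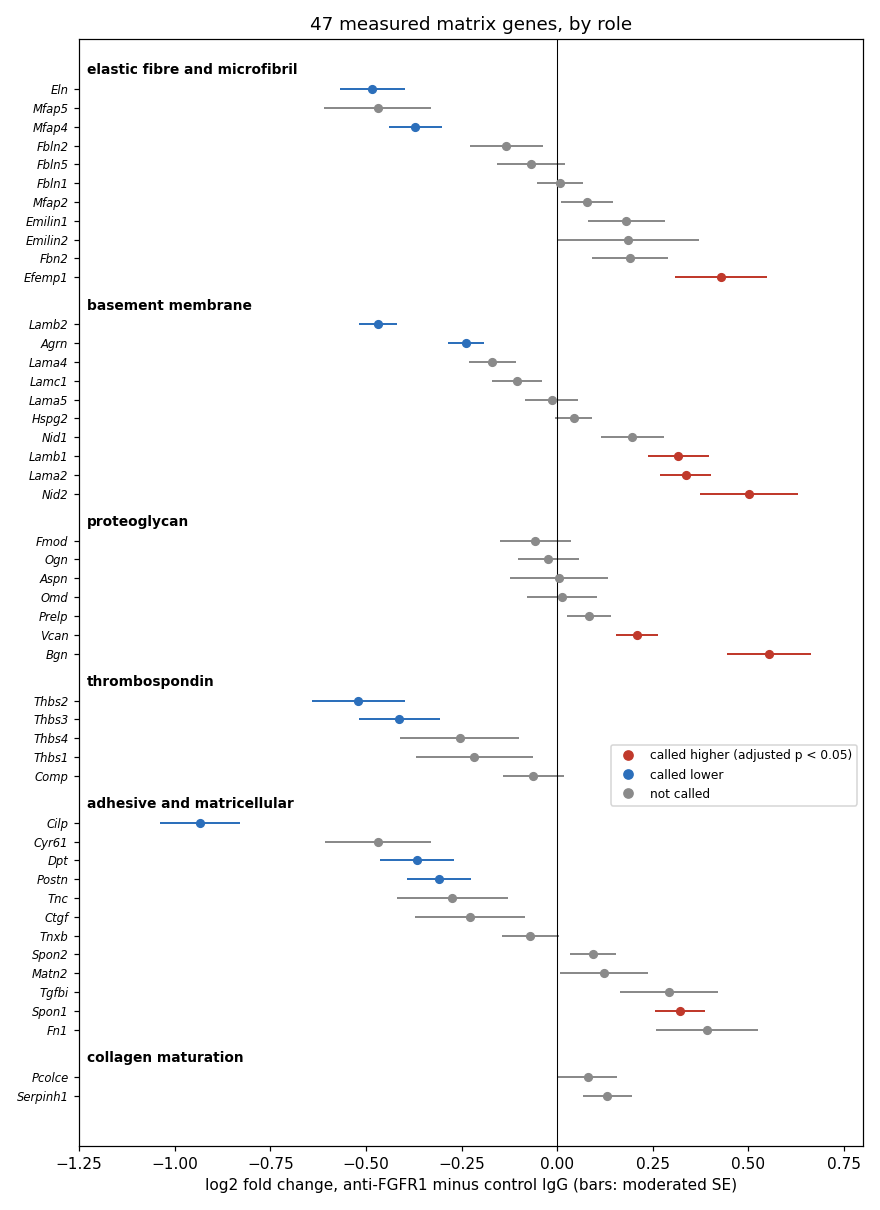
Log2 fold change (x axis, anti-FGFR1 minus control IgG) of the 47 measured matrix genes, grouped by role, with bars of 1 moderated SE and colour for the limma call. The 5 thrombospondin points lie left of 0, whereas the basement membrane genes spread from -0.47 (Lamb2) to 0.50 (Nid2).

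Among elastic fibre genes, elastin and a microfibril gene fell. Of 11 measured members, 1 rose, 2 fell and 8 did not pass, beside 2.94% of all genes called higher and 5.09% lower. Eln, which encodes elastin itself, ranged from 9.81 to 10.30 in controls with a median of 10.02, and from 9.31 to 9.73 after anti-FGFR1 with a median of 9.54. Every treated array lay below every control, a fall by 0.48 ± 0.085 on the log2 scale (SE, limma adjusted p = 0.0030), or 1.40-fold. Its second, dimmer probe set fell as well, by 0.34. Mfap4, a microfibril-associated glycoprotein that binds elastin and collagen, went from 7.76 to 7.95 in controls (median 7.83) to between 7.33 and 7.75 (median 7.45), again without overlap. It fell by 0.37 ± 0.069 on the log2 scale (SE, limma adjusted p = 0.0040). Efemp1, the fibulin-3 gene, moved the other way, from a control range of 7.94 to 8.64 (median 8.44) to 8.37 to 9.05 (median 8.87). Its groups overlapped on 1 treated array, and it rose by 0.43 ± 0.12 (SE, limma adjusted p = 0.0423). That call was lost without any 1 of 10 arrays (0.34 to 0.45, adjusted p = 0.0504 to 0.0944) and was kept without control IgG replicate 6 or anti-FGFR1 replicate 1. On adjustment for the 3' to 5' ratio, Eln was at -0.40 ± 0.11 and Mfap4 at -0.30 ± 0.086, and neither passed (limma adjusted p = 0.0575 and 0.0735), while Efemp1 was at 0.57 and passed.

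Mfap5, another microfibril glycoprotein, came close to the threshold. It stood between 9.14 and 10.03 in controls (median 9.39) and between 8.65 and 9.25 after anti-FGFR1 (median 9.08), a difference of -0.47 ± 0.14 (SE, limma adjusted p = 0.0523). Only 3 of the 6 treated arrays lay below all controls. The same gene passed without control IgG replicate 1 (-0.54, limma adjusted p = 0.0267), and leaving out no other single array gave a call. Its dimmer probe set was at -0.23 without a call, and the mean of its probe sets did not pass (-0.35, limma adjusted p = 0.109). Nor did Mfap5 pass with the 3' to 5' ratio in the fit (-0.425 ± 0.183, limma adjusted p = 0.255). The remaining 7 measured members were the fibrillin Fbn2, the elastin-binding Emilin1 and Emilin2, the fibulins Fbln1, Fbln2 and Fbln5, and Mfap2. Their differences ran from -0.13 for Fbln2 to 0.19 for Fbn2. For Fbln1 the 95% confidence interval of the difference was -0.12 to 0.14, and for Fbln5 it was -0.26 to 0.12. The brightest probe set of Fbln1 gave 0.0069, whereas its 2 dimmer ones gave -0.19 and -0.22, the latter called lower among all probe sets.

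Basement membrane genes moved in both directions: of 10 genes, 3 rose, 2 fell and 5 did not pass. Over all genes 2.94% were called higher and 5.09% lower. Lamb2, a laminin beta chain, separated the groups most sharply of all 47 genes by p-value. It ranged from 8.81 to 9.06 in controls (median 8.99) and from 8.44 to 8.55 after anti-FGFR1 (median 8.50). Each treated array was below the lowest control, and Lamb2 fell by 0.47 ± 0.050 on the log2 scale (SE, limma adjusted p = 9.8e-05), or 1.38-fold. Lamb1, the beta chain that takes the same place in other laminin trimers, ranged from 9.76 to 10.33 in controls (median 10.13) and from 10.27 to 10.57 after anti-FGFR1 (median 10.41). It rose by 0.32 ± 0.080 (SE, limma adjusted p = 0.0255), with 5 of 6 treated arrays above all controls. Within each array the log2 value of Lamb1 minus that of Lamb2 was 0.951 to 1.28 in controls and 1.80 to 2.04 after anti-FGFR1. This difference was chosen after its values were seen, its separation follows from the values of the genes themselves, and it is given as a description of the brightest probe sets. The call of Lamb1 was lost without control IgG replicate 3 or anti-FGFR1 replicate 2, 3 or 4 (0.29 to 0.32, limma adjusted p = 0.0517 to 0.0594). Averaging its 4 probe sets, all above 0, also ended the call (0.18 ± 0.074, limma adjusted p = 0.158).

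The 250 bases before the RefSeq starts of Lamb1 and Lamb2 are shown because these beta chains moved in opposite directions. Both are from the mouse build GRCm38.p6 and lie on the plus strand, at chr12:31265043-31265292 and chr9:108479612-108479861. Capitals mark matches to the GC box GGGCGG on either strand.
Lamb1: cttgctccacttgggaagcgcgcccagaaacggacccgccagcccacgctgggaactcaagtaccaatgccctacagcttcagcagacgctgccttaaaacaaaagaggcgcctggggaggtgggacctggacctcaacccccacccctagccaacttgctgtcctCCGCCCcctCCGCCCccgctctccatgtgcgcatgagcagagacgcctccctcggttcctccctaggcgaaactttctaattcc
Lamb2: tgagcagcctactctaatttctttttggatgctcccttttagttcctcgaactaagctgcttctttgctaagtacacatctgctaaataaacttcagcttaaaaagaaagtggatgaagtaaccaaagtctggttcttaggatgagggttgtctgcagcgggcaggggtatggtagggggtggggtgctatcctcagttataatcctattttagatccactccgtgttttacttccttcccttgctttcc
The Lamb1 window has a G and C content of 62% and holds the GC box 2 times, at 84 to 79 and 75 to 70 bases before the start. The Lamb2 window has a G and C content of 43.6% and holds none of the 6 motifs searched.

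Among the alpha chains Lama2, the chain of muscle and nerve laminins, rose. Its controls lay between 8.89 and 9.04 (median 8.95) and its treated arrays between 9.05 and 9.49 (median 9.29), all 6 above the highest control. The rise was 0.34 ± 0.067 (SE, limma adjusted p = 0.0064), at 0.34 ± 0.088 when adjusted for the 3' to 5' ratio (limma adjusted p = 0.0525). Lama4, the alpha chain typical of capillary basement membranes, was at -0.17 ± 0.061 on its brightest probe set without a call (limma adjusted p = 0.111), but its dimmer probe set was called lower at -0.36 ± 0.090. With the mean of both it passed at -0.27 (limma adjusted p = 0.0216). Lamc1, the gamma chain shared by most laminins, behaved alike, at -0.10 on the brightest and -0.29 on the dimmer probe set, and at -0.20 with their mean (limma adjusted p = 0.0209). Lama5 differed by -0.014, with a 95% confidence interval of -0.16 to 0.13.

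Of the proteins that join laminin to the rest of the sheet, Nid2 rose and Agrn fell. Nid2, which encodes a nidogen, stood at 7.37 to 8.03 in controls (median 7.82) and 7.84 to 8.50 after anti-FGFR1 (median 8.26), with 5 treated arrays above all controls. The rise was 0.50 ± 0.13 (SE, limma adjusted p = 0.0275), and the call was lost without control IgG replicate 5 or anti-FGFR1 replicate 2, 3 or 5 (0.44 to 0.49, limma adjusted p = 0.0534 to 0.0619). After adjustment for the 3' to 5' ratio Nid2 was at 0.61 ± 0.16 and did not pass (limma adjusted p = 0.0587). Its relative Nid1 differed by 0.20 ± 0.082 without passing (limma adjusted p = 0.171). Agrn, which encodes the heparan sulfate proteoglycan agrin, went from 9.44 to 9.62 (median 9.54) in controls to 9.22 to 9.38 (median 9.31), a small fall by 0.24 ± 0.047 on the log2 scale without overlap (SE, limma adjusted p = 0.0060). The dimmer probe set of Agrn, at a mean level of 6.50, gave 0.071, and with the mean of both the call was lost (-0.083, limma adjusted p = 0.306). Hspg2, which encodes perlecan, differed by 0.043, with a 95% confidence interval of -0.059 to 0.14.

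Among the 7 proteoglycans, 2 rose, none fell and 5 did not pass (limma, beside 2 at an unadjusted p under 0.05). Over all genes 2.94% were called higher and 5.09% lower. Bgn encodes biglycan, a small leucine-rich proteoglycan that binds collagen and signals through innate immune receptors. It ranged from 11.51 to 12.11 in controls (median 11.83) and from 11.95 to 12.53 after anti-FGFR1 (median 12.40), with 5 of 6 treated arrays above every control. It rose by 0.55 ± 0.11, or 1.47-fold (SE, limma adjusted p = 0.0059). All 3 of its probe sets were called higher, at 0.55, 0.58 and 0.50, and only 3.11% of genes were brighter on average. Vcan, the large hyaluronan-binding versican, was a dimmer gene. Its controls lay between 6.84 and 7.11 (median 6.90) and its treated arrays between 7.05 and 7.29 (median 7.13), 4 of them above all controls. The brightest probe set rose by 0.21 ± 0.056 (SE, limma adjusted p = 0.0332), and of the 8 probe sets 2 were called higher, the other at 0.69 ± 0.15, while the remainder ran from -0.072 to 0.38. The call of Vcan was lost without any 1 of 8 arrays (0.18 to 0.22, limma adjusted p = 0.0522 to 0.0680) and kept without control IgG replicate 3 or 6 or anti-FGFR1 replicate 1 or 4. It was also lost on adjustment for the 3' to 5' ratio (0.24 ± 0.072, limma adjusted p = 0.0865).

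The window before Bgn, the gene with the largest rise, is shown with the same marks as the laminin windows. It lies at chrX:73483351-73483600 on the plus strand of GRCm38.p6.
Bgn: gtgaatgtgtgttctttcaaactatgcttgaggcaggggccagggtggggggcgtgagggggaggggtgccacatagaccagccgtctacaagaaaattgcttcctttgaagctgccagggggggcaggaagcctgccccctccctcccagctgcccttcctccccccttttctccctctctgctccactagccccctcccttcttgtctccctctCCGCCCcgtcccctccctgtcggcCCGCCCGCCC
It holds the GC box 3 times, all within 34 bases of the start, and the last pair overlaps.

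The other 5 proteoglycans differed little. Ogn, Omd and Aspn, small leucine-rich genes that neighbour each other in the RefSeq annotation of GRCm38.p6, were at -0.023, 0.013 and 0.0057. Their 95% confidence intervals were -0.19 to 0.15, -0.18 to 0.21 and -0.27 to 0.28, so changes of the size seen in Bgn lie outside them. Omd was dim, with 88.5% of genes brighter. Fmod, which encodes the collagen-binding fibromodulin, was at -0.057 with its 6 probe sets on both sides of 0, and Prelp, with only 1.16% of genes brighter, at 0.084.

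All 5 thrombospondin genes had values below 0, with a median of -0.25, beside 8472 of all 18193 genes below 0. Of the 5, 2 fell, beside 5.09% of all genes. Thbs2 encodes a trimeric thrombospondin known as an inhibitor of blood vessel growth. It ranged from 8.18 to 8.72 in controls (median 8.41) and from 7.59 to 8.19 after anti-FGFR1 (median 7.96), with 5 of 6 treated arrays below all controls. It fell by 0.52 ± 0.12 on the log2 scale (SE, limma adjusted p = 0.0160), or 1.43-fold, and its dimmer probe sets were at -0.22 and -0.18 without a call. Thbs3, which encodes a pentameric member, was at 6.69 to 7.09 in controls (median 6.93) and 6.02 to 6.69 after treatment (median 6.54). The fall was 0.41 ± 0.10 in size (SE, limma adjusted p = 0.0261) at a level where 73.3% of genes were brighter, and anti-FGFR1 replicate 6 stood apart below the others. The call of Thbs3 was lost without control IgG replicate 4, 5 or 6 or anti-FGFR1 replicate 2 (-0.41 to -0.38, limma adjusted p = 0.0505 to 0.0550). Adjusted for the 3' to 5' ratio, Thbs2 was at -0.35 ± 0.14 and Thbs3 at -0.37 ± 0.14, and neither passed (limma adjusted p = 0.230 and 0.186). Thbs1, the other trimeric member, differed by -0.22 ± 0.15, Thbs4 by -0.25 ± 0.16 and Comp, the thrombospondin of cartilage and tendon, by -0.062 ± 0.080. The sign of Thbs1 turned on that adjustment, to 0.073.

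Of 12 adhesive and matricellular genes, 1 rose, 3 fell and 8 did not pass, beside 2.94% of all genes called higher and 5.09% lower. Cilp encodes cartilage intermediate layer protein, a secreted protein that binds transforming growth factor beta. It ranged from 9.76 to 10.36 in controls (median 10.02) and from 8.80 to 9.31 after anti-FGFR1 (median 9.20). Every treated array was below every control, and Cilp fell by 0.93 ± 0.11 on the log2 scale, or 1.91-fold (SE, limma adjusted p = 0.000133). Its call held in all 21 alternative analyses, with values between -0.99 and -0.85.

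The window before Cilp, the gene with the largest fall, lies at chr9:65264930-65265179 on the plus strand of GRCm38.p6.
Cilp: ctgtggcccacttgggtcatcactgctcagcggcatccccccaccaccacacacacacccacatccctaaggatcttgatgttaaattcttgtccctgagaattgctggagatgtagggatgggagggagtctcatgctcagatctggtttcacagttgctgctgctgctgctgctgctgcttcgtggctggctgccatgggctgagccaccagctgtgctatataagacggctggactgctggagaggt
It holds no match to the 6 motifs searched and so has no capitals, and its G and C content is 56%. The TATA box was searched only as TATAAA. A similar stretch, tatataag, lies near the end of the window and was not counted.

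Dpt and Postn, both bright genes, fell by less. Dpt encodes dermatopontin, a small protein that binds decorin and collagen. Its range moved from 11.60 to 11.93 (median 11.81) down to 11.03 to 11.66 (median 11.46), with 5 treated arrays below all controls. The fall was 0.37 ± 0.096 in size (SE, limma adjusted p = 0.0301). Postn, which encodes the fibroblast protein periostin, ranged from 11.42 to 11.95 in controls (median 11.70) and from 11.30 to 11.48 after anti-FGFR1 (median 11.38), with 4 treated arrays below all controls. It fell by 0.31 ± 0.084 on the log2 scale (SE, limma adjusted p = 0.0364). The call of Dpt was lost without control IgG replicate 4, 5 or 6 or anti-FGFR1 replicate 1 or 2 (-0.37 to -0.34, limma adjusted p = 0.0509 to 0.0695). The call of Postn was lost without any 1 of 8 arrays (-0.32 to -0.26, limma adjusted p = 0.0514 to 0.0805) and kept without control IgG replicate 1 or 4 or anti-FGFR1 replicate 3 or 5. Adjusted for the 3' to 5' ratio, Dpt was at -0.37 ± 0.13 and Postn at -0.22 ± 0.10 (limma adjusted p = 0.142 and 0.317).

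Spon1, which encodes the adhesive protein F-spondin, was the member of this role that rose. Its controls lay between 7.30 and 7.56 (median 7.50) and its treated arrays between 7.62 and 7.96 (median 7.79), without overlap. The rise was 0.32 ± 0.065 (SE, limma adjusted p = 0.0071), and a second probe set was called higher at 0.25, while the other 2, dimmer ones were at 0.043 and 0.065. On adjustment for the 3' to 5' ratio it was at 0.28 ± 0.084 (limma adjusted p = 0.0922). Its relative Spon2 differed by 0.094 ± 0.060.

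Cyr61 and Ctgf, listed under the current symbols Ccn1 and Ccn2, encode matricellular CCN proteins induced by serum, stretch and growth factors. Cyr61 ranged from 8.94 to 9.62 in controls (median 9.23) and from 8.33 to 9.24 after anti-FGFR1 (median 8.87), a difference of -0.47 ± 0.14 that just missed the threshold (SE, limma adjusted p = 0.0533). Its 4 probe sets were at -0.47, -0.47, -0.49 and -0.34, and their average passed (-0.44, limma adjusted p = 0.0416). It also passed without control IgG replicate 5 (-0.54, limma adjusted p = 0.0319) or anti-FGFR1 replicate 4 (-0.55, limma adjusted p = 0.0230). Leaving out any other single array gave no call. Cyr61 was not called either when the RNA quality ratio was a covariate (-0.377 ± 0.18, limma adjusted p = 0.313). Ctgf was at -0.23 ± 0.14 without a call (limma adjusted p = 0.380), with a 95% confidence interval of -0.54 to 0.081.

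Fn1, which encodes fibronectin, the main adhesive protein bound by integrins, was at 9.46 to 10.37 in controls (median 9.70) and 9.82 to 10.32 after treatment (median 10.23). Control IgG replicate 6 had the highest value of all 12 arrays, and the difference of 0.39 ± 0.13 did not pass (SE, limma adjusted p = 0.0902). Without that array it was 0.51 and passed (limma adjusted p = 0.0046), but leaving out no other single array gave a call. The dimmer probe set of Fn1 was at 0.15 without a call. Fn1 was not called either when the RNA quality ratio was a covariate (0.425 ± 0.176, limma adjusted p = 0.238). Tgfbi, an integrin-binding protein induced by transforming growth factor beta, differed by 0.29 ± 0.13, with all 4 probe sets between 0.21 and 0.29 and no call. The tenascins Tnc and Tnxb were at -0.27 ± 0.14 and -0.070 ± 0.074, and Matn2, a matrilin, at 0.12 ± 0.12. The genes that help collagen mature did not pass either: Serpinh1, the collagen chaperone of the endoplasmic reticulum, differed by 0.13 ± 0.064 and Pcolce, which speeds the removal of procollagen ends, by 0.080 ± 0.078.

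**Figure D2:**
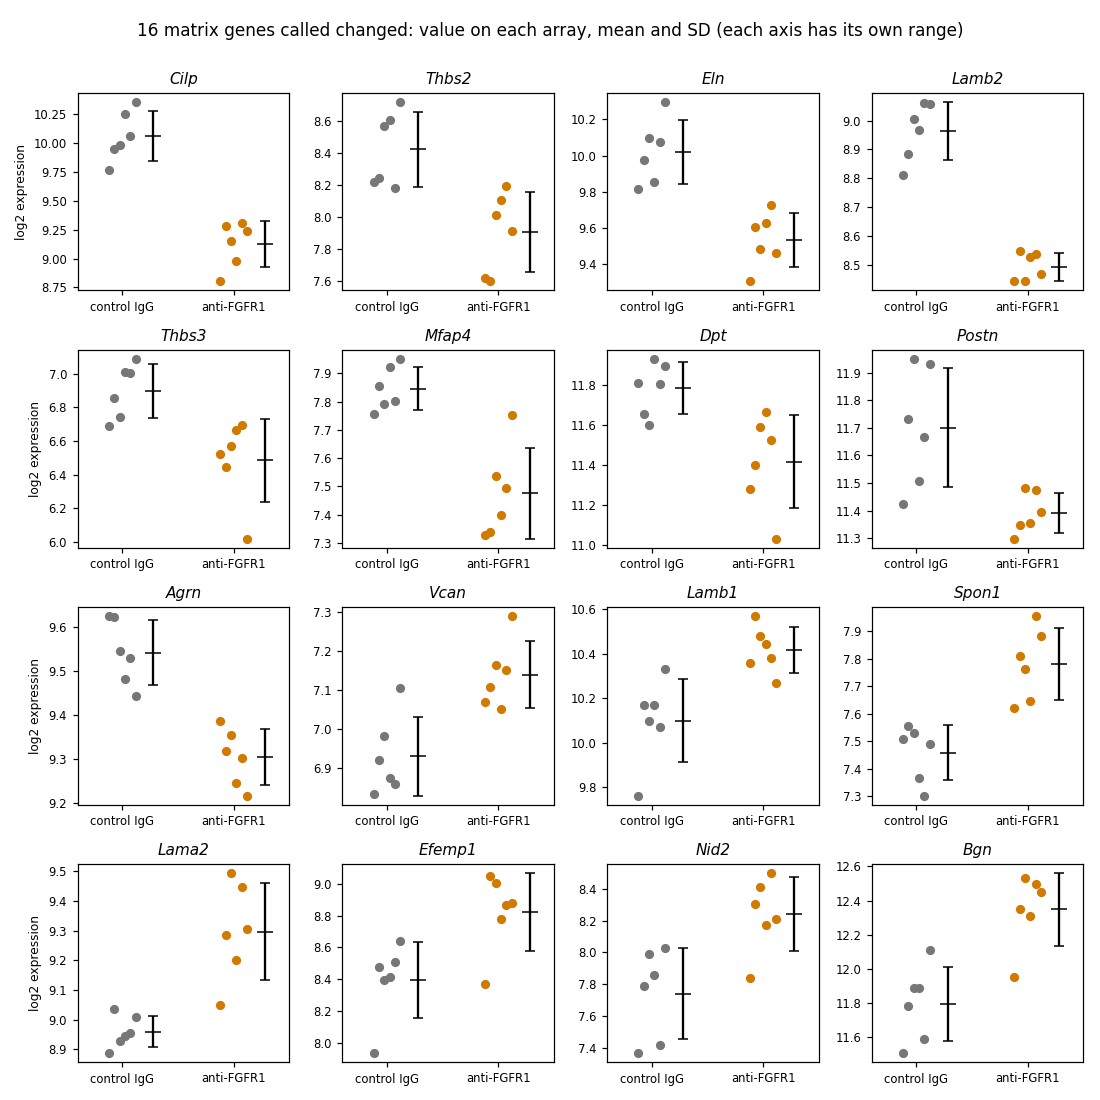
Log2 expression (y axis, own range in each panel) on the 6 control IgG and 6 anti-FGFR1 arrays for the 16 called matrix genes, in order of fold change, with the mean and SD beside the points. Cilp, Eln, Lamb2, Mfap4, Agrn, Spon1 and Lama2 show no overlap between the groups, and the other 9 overlap on 1 or 2 treated arrays.

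Several probe sets were available for 32 of the 47 genes, giving 102 probe sets in all, and in 23 of those 32 genes every probe set had the same sign. Of the 16 called genes 9 had a single probe set, so their direction could not be checked this way. In 5 of the other 7 (Eln, Lamb1, Bgn, Thbs2 and Spon1) the probe sets shared their sign, and in Agrn and Vcan they did not. Among genes without a call on the brightest probe set, a dimmer probe set was called lower for Fbln1, Lama4 and Lamc1.

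**Figure D3:**
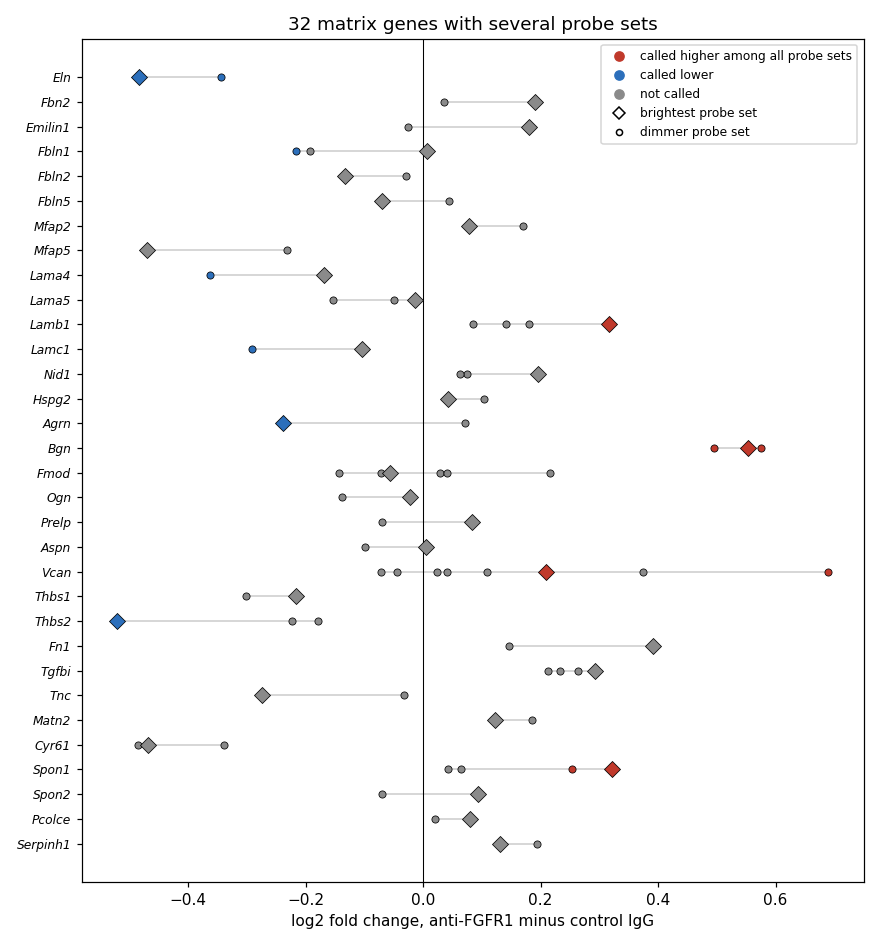
Log2 fold change (x axis) of each probe set of the 32 matrix genes that have several, with a diamond for the brightest and circles for dimmer ones, coloured by the call among 34945 probe sets. The 3 probe sets of Bgn lie together near 0.55, while those of Vcan spread from -0.072 to 0.69.

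Related genes from the same structures, listed by function with earlier results of these data known, were counted in the same way. Of 24 matrix receptors 1 rose and 2 fell. Itga7, the alpha subunit of a laminin-binding integrin of muscle, fell by 0.67 ± 0.091 on the log2 scale, Itga1, of a collagen- and laminin-binding integrin, by 0.31 ± 0.049, and the syndecan Sdc4 rose by 0.30 ± 0.076 (limma adjusted p = 0.000479, 0.0012 and 0.0251). Of 18 further laminin and basement membrane genes 2 rose and 3 fell. The netrins Ntn1 and Ntn4, which are related to laminins, fell by 0.43 ± 0.052 and 0.58 ± 0.078, and Col15a1, a collagen at the edge of basement membranes, rose by 1.00 ± 0.17. Of 15 further elastic fibre genes 1 rose and 3 fell. Lox, whose product cross-links elastin and collagen, fell by 0.93 ± 0.087, its relative Loxl1 rose by 0.34 ± 0.087, and Adamtsl4 fell by 0.35 ± 0.093. Of 19 further proteoglycan genes 2 rose and none fell (limma, with 6 at an unadjusted p under 0.05). These were Lum, which encodes lumican (0.76 ± 0.096), and the link protein gene Hapln4 (0.36 ± 0.049), while Dcn, which encodes decorin, was at -0.12 ± 0.070 without a call. Of 25 further matricellular genes 3 rose (Smoc2, Smoc1 and Mgp, at 1.201, 0.63 and 0.66) and 2 fell. The percentages called in these 5 lists were 12.5%, 27.8%, 26.7%, 10.5% and 20%, beside 8.03% of all genes.

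Many markers of vascular cells were lower in the same mice. For all marker counts here, 2.94% of all genes were called higher and 5.09% lower. Of 14 endothelial markers 7 fell and none rose (limma, 10 of them below 0.05 before adjustment). The other 7 were not called, at -0.25 (Cdh5) to 0.022 (Kdr). The mean of all 14 per array ran from 9.53 to 9.77 in controls and from 9.30 to 9.51 after anti-FGFR1. Among 11 smooth muscle and pericyte markers 6 fell and none rose (limma, 7 of them below 0.05 before adjustment), with means of 9.63 to 9.80 and 9.37 to 9.56. The other 5 were not called, at -0.29 (Des) to 0.034 (Mylk). Cells of the vessel wall are known producers of elastin, and endothelial cells of laminins and perlecan. Among the elastin, laminin and perlecan genes of the group, Eln and Lamb2 were called lower and Lama2 and Lamb1 higher. Hspg2, Lama4, Lama5 and Lamc1 were not called on their brightest probe sets. The part of vascular cells in the matrix values was not tested. Of 14 fibroblast and preadipocyte markers 3 rose and 1 fell, and their means overlapped, at 9.66 to 10.10 and 9.70 to 10.07. Pdgfra (0.62 ± 0.089), Lum and Col3a1 rose, and Pi16 (-0.50 ± 0.10) fell. Matrix genes are part of this list: Lum and Dcn were also counted above as proteoglycans, and Col1a1, Col1a2 and Col3a1 encode collagen chains. Of 15 macrophage markers 3 rose and none fell, with overlapping means of 9.56 to 10.16 and 9.77 to 10.15. Of 7 nerve and Schwann cell markers 2 rose and 1 fell, with means of 9.06 to 9.10 and 9.10 to 9.18, and of 11 brown adipocyte markers 2 rose and none fell, with means of 12.3 to 12.7 and 12.6 to 12.8. The part of these shifts in the matrix values was not tested. All 15 skeletal muscle markers lay below 0 with a median of -0.70 and none was called (limma, 0 of them below 0.05 before adjustment), and their means spread from 9.61 to 11.8 and from 6.83 to 11.7. With that mean as a term in the fit 14 of the 16 matrix calls were kept, at 89.6% to 114% of their size, and those of Efemp1 (0.43, limma adjusted p = 0.0590) and Vcan (0.20, limma adjusted p = 0.0574) were lost. With control IgG replicate 6 and anti-FGFR1 replicate 5 both left out, 13 of the 16 calls were kept, and those of Efemp1 (0.47), Postn (-0.28) and Dpt (-0.37) were lost.

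**Figure D4:**
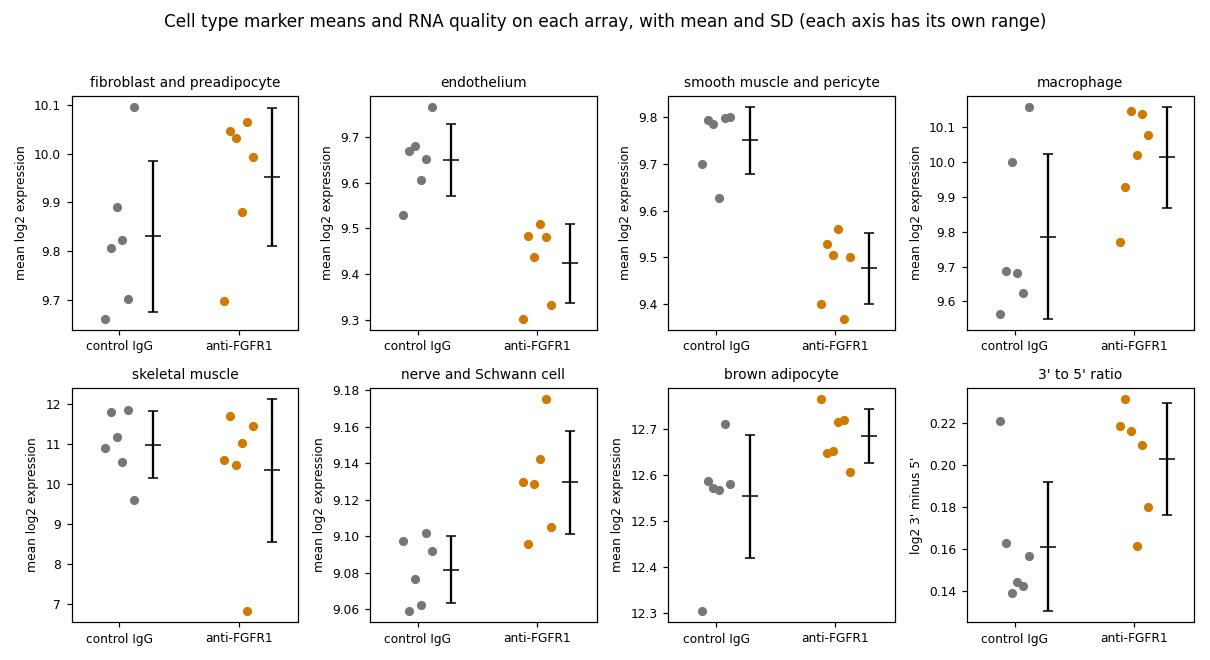
Mean log2 expression of 7 cell type marker lists, and the log2 3' to 5' ratio, on each of the 6 control IgG and 6 anti-FGFR1 arrays (y axes, own range in each panel), with mean and SD. Endothelial and smooth muscle means do not overlap between the groups, while 1 anti-FGFR1 array is far lower than the others in skeletal muscle markers.

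The 3' to 5' ratio had the larger effect on the calls. Because the ratio itself was higher on average on treated arrays, the fit cannot fully tell RNA quality and the antibody apart. With it in the fit, 6 of the 16 matrix genes remained called: Bgn, Lamb1 and Efemp1 higher and Cilp, Lamb2 and Agrn lower. The called genes kept a median of 95.6% of their difference (66.8% to 133%), while the median SE grew to 1.25 times its former size. Of the 10 lost calls 4 had a difference as large or larger than before, namely Lama2, Nid2, Vcan and Dpt, and the lowest shares of the difference were kept by Thbs2 and Postn, at 66.8% and 69.6%. Over all genes the share called fell from 8.03% to 3.78%, and the share of matrix genes from 34% to 12.8%.

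**Figure D5:**
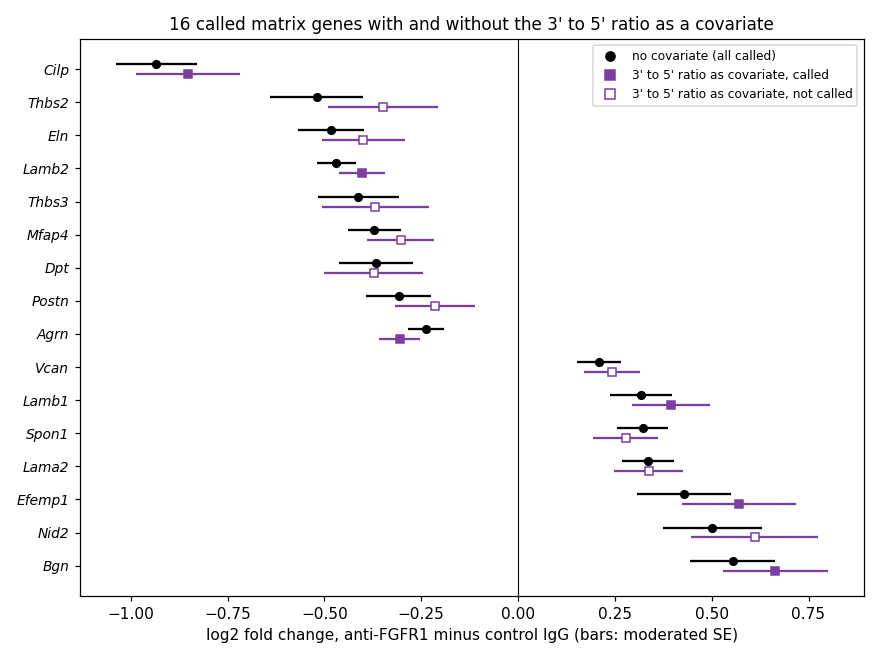
Log2 fold change (x axis) with bars of 1 SE for the 16 called matrix genes, without a covariate (circles) and with the 3' to 5' ratio in the model (squares, filled where still called). Every gene keeps its sign, and 6 of the 16 squares are filled.

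Promoter windows from RefSeq were available for 33 of the 47 genes, 12 of them called, in 40 windows of 250 bases before a start. The windows were searched for 6 short motifs, of which the GC box was the most frequent. The GC box GGGCGG, on either strand, was in 55% of the matrix gene windows and 32.7% of all 32851 windows. Counted by gene instead, in any window of a gene, it was found for 4 of 5 genes that rose, 2 of 7 that fell and 14 of 21 that were not called. No share of all genes was computed by that count. The TATA box TATAAA, on the given strand, was in 15% against 7.59%. The TEAD motif CATTCC was in 15% of windows against 12.6%, and the ETS motif CCGGAA in 5% against 12%. TEAD was found for Cyr61, Emilin2, Mfap2, Nid1, Ogn and Thbs4 and ETS for Emilin2 and Nid1, none of them called. The AP-1 motif TGANTCA was in 5% against 6.75%, and the CArG box, searched on both strands, in 2.5% against 1.47%, in the window of Lama2. The matrix windows also had a higher median G and C content, 55.8% against 52.4%. It was 62% in windows of genes that rose, 52% of genes that fell and 56.6% of genes not called. The part of base composition in the GC box counts was not tested.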

How the data were processed

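RNA of brown adipose tissue from 12 mice was hybridised to 12 one-colour Affymetrix arrays after biotin labelling, 6 per group. The authors deposited log2 expression values for 45101 probe sets, and the submitters' processing notes name RMA and limma without saying what each was used for. Versions, filters and genome build are not given in the sources used here. The log2 values compress differences of probe sets near background. The values were used as deposited. Probe sets with a single gene in the platform table (34945) were kept, symbols were updated through Entrez identifiers to RefSeq genes of GRCm38.p6, and the brightest probe set stood for each of 18193 genes.

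The comparison used the linear models of limma 3.58.1 under R 4.3.3 (two-sided moderated statistics from eBayes, no covariate, Benjamini-Hochberg over all genes, threshold 0.05). The fit was tried on simulated data with independent noise in each gene, which lacked the RNA quality and muscle marker differences of these arrays. Arrays give no counts, and their number limits the precision. The RNA quality ratio was compared by an exact permutation test over 924 assignments. The members, role groups, related lists and markers were chosen with earlier results of these data known. The rule for named genes gave ranges over arrays for called members and for the 10 with the smallest p, at most 3 genes of each related list, and other members by range and count. Single values of further members, and of Dcn, Pdgfra and Pi16, were added outside that rule after their values were seen. Any pair of arrays shared at most 0.0665% of their values. Alternatives were other normalizations, the mean of a gene's probe sets, a filter at the median level, an intensity trend, a replicate block, the RNA quality ratio or the muscle marker mean as a covariate, and leaving out arrays.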

Additional observations from a re-analysis of the deposited data

Results flagged for a closer look

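Among 94 sets of 6 values, 1 per measured matrix gene and group, 5 held an array far from the other 5, and chance gives about 1 in 20. Fbln1 was high on control IgG replicate 5 (7.97, next 7.71) and on anti-FGFR1 replicate 1 (7.80, next 7.70). Efemp1 was low on control IgG replicate 1 (7.94, next 8.39), Comp on control IgG replicate 3 (6.60, next 6.94) and Thbs3 on anti-FGFR1 replicate 6 (6.02, next 6.45). The 3' to 5' ratio was high on control IgG replicate 1 (0.221, next 0.163).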

How the results depend on the processing

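Of the 16 calls, those of Lamb2, Cilp and Bgn held in all 21 alternatives, and all 16 genes kept their sign in every alternative that tested them. Without single arrays the group had 3 to 8 genes higher and 6 to 10 lower. The count of higher genes was 3 or 4 without control IgG replicate 5 (4) or anti-FGFR1 replicate 2 (3), 3 (3) or 5 (4). With the 3' to 5' ratio in the fit 3 matrix genes were higher and 3 lower, and 281 and 407 of all genes. The ratio's difference between groups, 0.0417, was past the threshold without control IgG replicate 1 or anti-FGFR1 replicate 4 or 6 and not without any other array. It was 0.0142 for Gapdh alone (exact permutation p = 0.506) and 0.036 to 0.0537 without single arrays. A second quantile normalization kept all 16 calls but changed the balance of all genes, from 63.4% of calls lower to 50.9%. The fit with the replicate block called 9 matrix genes higher and 11 lower (535 and 802 of all genes), the 16 and Fn1, Cyr61, Tgfbi and Mfap5. The labels do not say whether same-numbered arrays share more than a number. Correlations of their deviations ran from -0.295 to 0.329, beside -0.394 to 0.488 for different numbers. Of the 6 control arrays 3 were closest to their own number, and whether the arrays were paired is not known. Centring arrays on their median ended the call of Efemp1 (0.42, limma adjusted p = 0.0505). No detection calls were used, so the dimmest genes may lie at background.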
